A study of Mus musculus with 8 samples.

Results

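The long noncoding RNAs best represented in the mouse heart were followed in hearts with and without Ssbp1, the gene of mtSSB, a protein that coats single-stranded mitochondrial DNA. Of the 9959 genes that the deposited table classes as lncRNA, 6780 were listed at 0 in all 4 libraries compared, 2549 had a mean normalized count above 0 and below 10, and 547 a mean from 10 to below 100. A mean of at least 100 over the 4 libraries selected 83 genes, and 81 of them are described here, because Gas5, Zfas1 and the Snhg genes, which host small nucleolar RNAs, were set aside by rule (Gas5 and Snhg14 were the ones above the threshold). These genes were thus chosen by their measured level over the control and knockout libraries, and levels are given as a description without a test. The rule used the mean over both genotypes and not their difference, but 4 genes reached it through 1 genotype: Gm47283, Rab10os and Gm43260 had a control mean under 100, and Gm46430 a knockout mean under 100.

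RNA came from whole hearts of mice at about 5 weeks of age on an inbred C57BL/6N nuclear background and was made into strand-specific TruSeq libraries. Knockouts are labelled Ssbp1-/- and controls Ssbp1+/+. In the study's design exon 3 of Ssbp1 is flanked by loxP sites and removed by a Cre recombinase under the muscle creatine kinase (Ckmm) promoter, which acts in heart and skeletal muscle, while controls carry the loxP-flanked gene without Cre. In the labels every sample is said to come from a Cre cross, and the carriers of Cre are not marked. Fibroblasts, endothelial cells and blood cells of the heart keep the gene in this design, and in whole tissue fewer cells of a type and less RNA per cell cannot be told apart. Title and genotype field give the same genotype for 2 controls and 2 knockouts, each numbered 1 and 2 here. For the mice 585H and 586H the title and the genotype field contradict each other, so only their own values are given. Nothing in the labels says more of how the replicates were raised than that they are separate mice, so each test measures the spread between 2 hearts.

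Long noncoding RNAs are transcripts without a long open reading frame, usually made by RNA polymerase II. Some stay in the nucleus, where Malat1 gathers in nuclear speckles and Neat1 builds paraspeckles. Some are made from 1 parental allele and silence neighbouring genes in cis, as Kcnq1ot1 and Airn do, and some are mainly precursors from which microRNAs are cut. In heart muscle, Mhrt is transcribed antisense to the myosin heavy chain genes, and Carmn and Hand2os1 accompany cardiovascular development. Many others in the list carry only a clone or model name: 57 of the 81 have a RIKEN, Gm or expressed-sequence symbol.

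For 9 of the 81 genes the transcribed strand contains microRNA genes, and the mature microRNAs show which small RNAs these long transcripts can give rise to. The sequences below are RefSeq's (GRCm38.p6), written 5′ to 3′ with the seed, bases 2 to 8, in capitals, and are grouped so that shared seeds stand together. The let-7 seed occurs in 6720427I07Rik (chr13:48532905-48546500, minus strand) and in Mir99ahg (chr16:77236317-77773427, plus strand), and the miR-99/100 and miR-125 seeds in both Mir99ahg and Mir100hg (chr9:41327077-41716994, plus strand). Mir100hg also contains the gene Mirlet7a-2. Only its sequence mmu-let-7a-2-3p was at hand here, so Mir100hg was not grouped under the let-7 seed.
mmu-let-7a-5p: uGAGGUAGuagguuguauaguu
mmu-let-7d-5p: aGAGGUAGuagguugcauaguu
mmu-let-7f-5p: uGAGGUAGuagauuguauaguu
mmu-let-7c-5p: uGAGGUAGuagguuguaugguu
mmu-miR-99a-5p: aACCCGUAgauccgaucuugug
mmu-miR-100-5p: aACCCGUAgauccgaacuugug
mmu-miR-125b-5p: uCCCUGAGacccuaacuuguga

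Dleu2 (chr14:61602839-61682373, minus strand) contains miR-15a and miR-16, which share 1 seed, and A330023F24Rik (chr1:194976375-195037904, plus strand) contains miR-29b and miR-29c, which share another.
mmu-miR-15a-5p: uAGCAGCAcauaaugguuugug
mmu-miR-16-5p: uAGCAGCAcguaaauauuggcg
mmu-miR-29b-3p: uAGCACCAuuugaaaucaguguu
mmu-miR-29c-3p: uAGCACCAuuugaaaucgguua

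Mir22hg (chr11:75461539-75466676, plus strand) contains miR-22, an abundant microRNA of heart muscle, H19 (chr7:142575529-142578143, minus strand) contains miR-675, and the imprinted transcripts Rian and Meg3 of chromosome 12 contain several others, of which miR-370 is shown. Each of these has a seed of its own among the sequences printed.
mmu-miR-22-3p: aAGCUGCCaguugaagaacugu
mmu-miR-675-5p: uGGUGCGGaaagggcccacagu
mmu-miR-370-3p: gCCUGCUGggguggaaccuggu

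The 20 microRNA genes inside these 9 transcripts were all listed at 0 in the 4 libraries, so the values below are those of the long host RNAs and say nothing of the mature microRNAs.

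Depth was 24067849 and 19716305 reads in control and 25558246 and 25682093 in knockout hearts, of which 6568812 to 11259234 fell on nuclear genes. Values per library are normalized counts, replicate 1 first. The normalized count of Ssbp1 itself was 177 and 216 in control and 170 and 163 in knockout hearts (log2 fold change -0.23 ± 0.16, adjusted p = 0.890 by limma; ± after a log2 fold change is the standard error, and adjusted p-values are limma's throughout). Both knockouts lay under both controls, a difference that did not pass the test over the whole gene, and exon 3 alone was not measured here. Of the 17 genes that limma called over all 14522 tested, 6 were mitochondrial mRNAs, all lower in knockouts, and 11 were nuclear genes, all higher. No lncRNA gene was among them. The 8 cardiomyocyte markers summed to about 623890 to 653550 in control and 621870 to 646780 in knockout hearts, whereas the 6 skeletal muscle markers summed to 6.89 to 12.7. Red blood cell markers stood apart in knockout replicate 2, at a sum of 41866 against 14398 to 18944 in the other 3, and their part in the differences below was not tested. By limma, 0 markers of fibroblasts, endothelial cells, macrophages or mural cells were called at an adjusted p of 0.05, and 1 was under an unadjusted p of 0.05. That was the macrophage marker Cd68, at 81.1 and 57.9 in control and 39.5 and 35.2 in knockout hearts (log2 fold change -0.86 ± 0.28, adjusted p = 0.754). The fibroblast markers Pdgfra and Lum and the macrophage marker Mrc1 were also lower without overlap, and the fibroblast marker Tcf21 and the endothelial marker Egfl7 higher, all at an unadjusted p above 0.05. The part of these cells in the results was not tested.

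The 81 RNAs held 2.24% and 2.46% of the nuclear normalized counts of control hearts, and 2.36% and 2.37% of those of knockout hearts. Malat1 alone made up 54.1% to 59.6% of that, and Malat1, Neat1, AY036118 and Gm26917 together about 83% (82.7% to 83.0%). Within all lncRNA genes of the table the 81 took 90.0% to 90.9% of the counts. The distribution was steep: 10 genes had a mean of at least 1000, 36 a mean from 200 to below 1000 and 35 a mean from 100 to below 200, with a median of 225. Counted against all genes, mitochondrial ones included, the same RNAs made up 0.834% and 0.820% of all counts of control hearts, and 0.992% and 1.04% of those of knockout hearts. This share varies with the nuclear part of each library. Nuclear reads were 8981637 of 24067849 and 6568812 of 19716305 in control hearts. In knockout hearts they were 10734547 of 25558246 and 11259234 of 25682093.

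**Figure D1:**
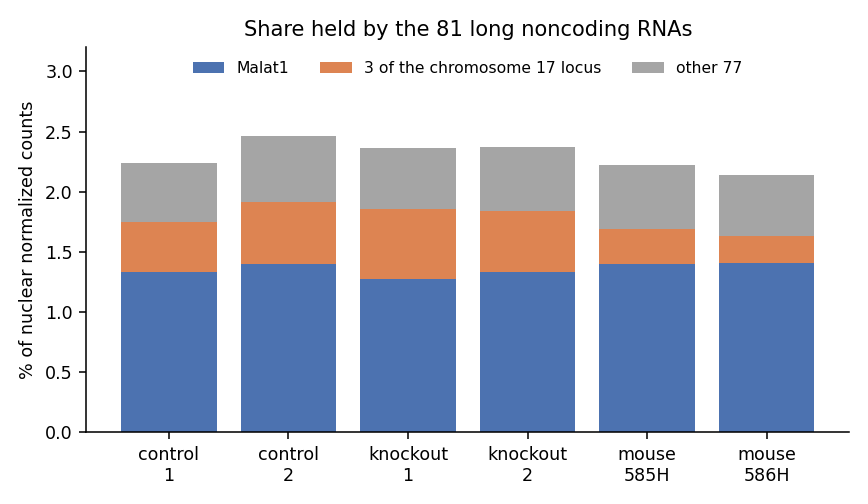
Percent of the nuclear normalized counts held by the 81 long noncoding RNAs in each of 6 libraries, split into Malat1, the 3 genes of the chromosome 17 locus (AY036118, Gm26917, Gm42418) and the other 77. Totals lie between 2.14% and 2.46%, and the chromosome 17 part is smallest in the mice 585H (0.296%) and 586H (0.227%).

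Levels were compared between genes per kb of exon. AY036118 stood first at 23801 per kb and Malat1 next at 16772, followed by Gm26917 at 6492. AY036118 and Gm26917 lie in a cluster with a pseudogene related to ribosomal RNA, and the origin of their reads was not tested. The whole of AY036118, 923 bases, matches the gene model CT010467.1 at 100% identity, so its assignment of reads is uncertain. The order of the first pair holds for the mean only: in control replicate 1 AY036118 was at 16064 per kb and Malat1 at 16738, and in the mice 585H and 586H AY036118 was at 3826 and 4888. A gap separated these from Rmrp, the RNA of the RNase MRP ribonucleoprotein, at 1609, and Gm49708 at 1382. Rmrp matches another annotated entry of the same name over 271 bases at 100% identity. Gm49708 matches 7 other genes, over up to 1014 bases at 98.9% identity, so reads of both could be split between entries. From Gm50321 at 868 to Mhrt at 457 the neighbouring genes lay close together, and the library values of each overlapped those of the next. Neat1, the fourth gene by count, stood at 508 per kb over an exon of 20771 bases, and Kcnq1ot1 at 16.8 per kb over 93092 bases. Single-exon genes numbered 27 and spliced genes 54.

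**Figure D2:**
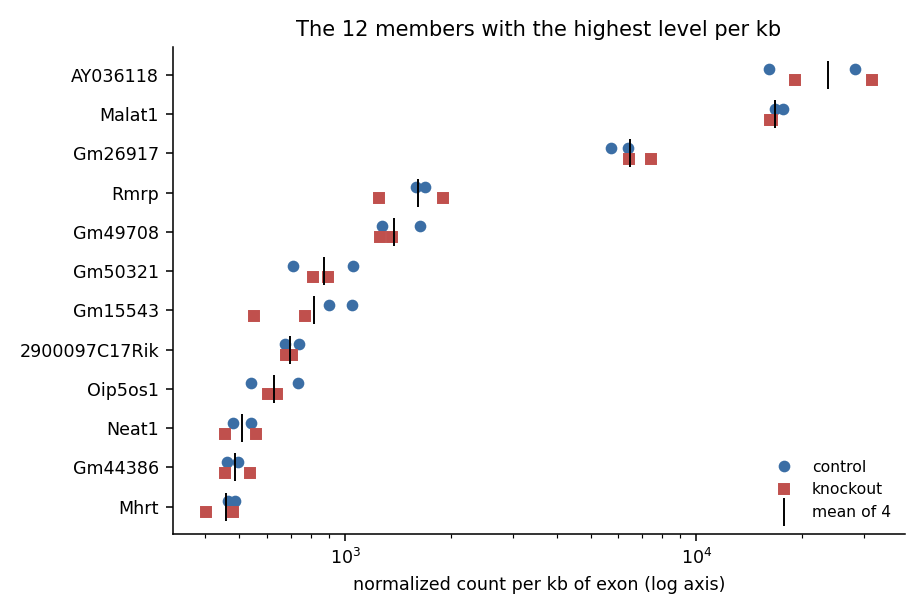
Normalized count per kb of exon (log axis) in the 2 control and 2 knockout libraries for the 12 genes with the highest mean per kb, which is marked by a vertical bar. AY036118, Malat1 and Gm26917 stand above the other 9, and control and knockout points overlap for 9 of the 12.

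No long noncoding RNA among the 81 was called higher or lower in knockout hearts by limma over all genes tested at an adjusted p of 0.05, where 0.0757% of all tested genes were called higher and 0.0413% lower. The smallest adjusted p of a member was 0.647. edgeR and DESeq2 on the recovered reads also called 0 of the 81 (smallest adjusted p 0.619 and 0.627), against 0.131% and 0.427% of all genes tested. At an unadjusted p under 0.05, limma found 8 members higher and 3 lower, which is 9.88% and 3.70% of them, where 3.08% of all tested genes were higher and 3.02% lower. Of the 8 higher members, 2 (Gm47283 and Rab10os) passed the level threshold only through the knockout hearts in which they were high, so this share was partly set by the rule and is not read against the background. edgeR gave 8 members under 0.05 in either direction and DESeq2 5, where 6.11% and 3.62% of all tested genes were under 0.05. The limma numbers of members under 0.05 changed when single libraries were left out, and the shares of all genes in those fits were not set beside them. Control and knockout values did not overlap in 17 members that were higher and 8 that were lower (18.1% and 17.5% of all tested genes), and they overlapped in 56.

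The members' log2 fold changes ranged from -0.57 to 0.77 with a median of 0.023, beside 0.0024 over all genes tested, and 44 were positive and 37 negative. The 95% interval of the difference lay inside a 2-fold change either way for 74 of the 81 and inside a 1.5-fold change for 40.

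**Figure D3:**
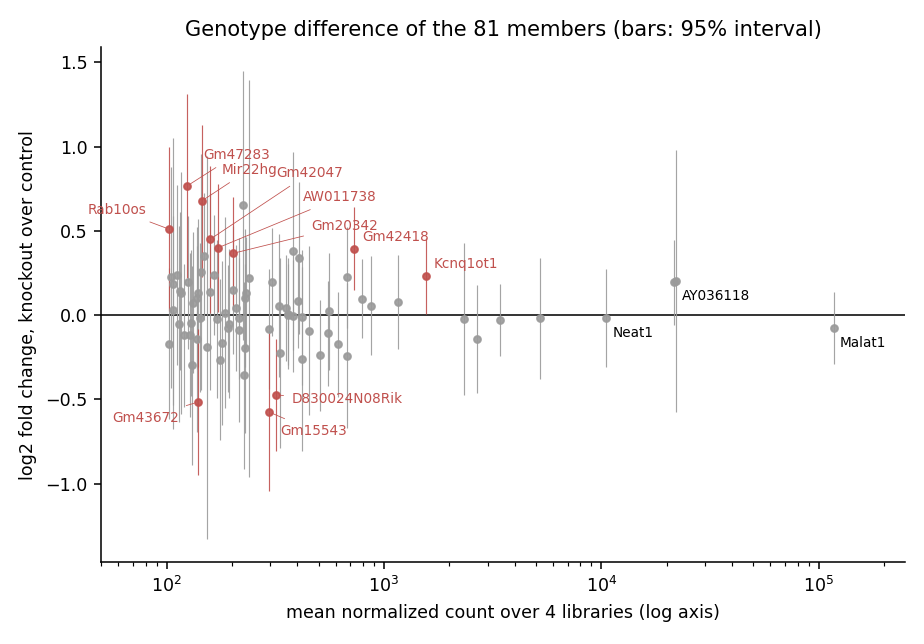
Log2 fold change of knockout over control against the mean normalized count over 4 libraries (log axis) for the 81 genes, with 95% intervals as bars. The 11 genes at an unadjusted p under 0.05 are in red, and none passes adjustment.

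Neither nuclear body RNA passed the test, and the intervals of both excluded a change of 1.5-fold. Malat1 (ENSMUSG00000092341, chr19:5795690-5802672, minus strand, 1 exon) stood at 116878 and 123606 in control and 112943 and 115044 in knockout hearts, so that both knockouts lay just under both controls (log2 fold change -0.076 ± 0.087, 95% interval -0.29 to 0.13, unadjusted p = 0.412 and adjusted p = 0.933 from limma). Neat1 (chr19:5824708-5845478, minus strand), transcribed next to Malat1, stood at 9973 and 11225 in control and 9448 and 11567 in knockout hearts, with the groups overlapping (log2 fold change -0.017 ± 0.12, 95% interval -0.31 to 0.28, unadjusted p = 0.89 and adjusted p = 0.988 from limma). Of the 22 paraspeckle protein genes listed, all were tested and 0 were called in either direction (median log2 fold change 0.055). The smallest p belonged to Hnrnph3, an RNA-binding protein of the hnRNP H family, with 110.4 and 98.3 in control and 144 and 126 in knockout hearts (log2 fold change 0.37 ± 0.18, adjusted p = 0.815). Rbmx came next, with 465 and 443 in control and 508 and 534 in knockout hearts (log2 fold change 0.20 ± 0.11, adjusted p = 0.837). Sfpq, a core paraspeckle protein, had 847 and 756 in control and 804 and 1008 in knockout hearts, with overlapping groups. Of 18 nuclear speckle genes 0 were called, 1 was under an unadjusted p of 0.05, and the median was 0.071. That gene was Sf3b1, a subunit of the U2 snRNP, with 1739 and 1887 in control and 2167 and 2248 in knockout hearts (log2 fold change 0.29 ± 0.09, adjusted p = 0.75).

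A cluster on chromosome 17 supplied 3 of the 81 genes and 2 of the 4 most abundant. Gm26917 (chr17:39843013-39846341, plus strand) and Gm42418 (chr17:39846958-39848788, plus strand) lie in a row, and AY036118 (chr17:39847113-39848035, minus strand, 923 bases) lies wholly inside Gm42418 on the other strand. RefSeq lists Gm42418 as a synonym of Rn18s-rs5, a pseudogene related to 18S ribosomal RNA. Whether reads counted for these 3 genes came from ribosomal RNA left in the libraries was not tested. Gm42418 was 647 and 613 in control and 848 and 808 in knockout hearts, both knockouts above both controls, and had the smallest p of the 81 genes (log2 fold change 0.39 ± 0.10, 95% interval 0.15 to 0.64, unadjusted p = 0.00772 and adjusted p = 0.647 from limma). Its values in the mice left out were 627 in mouse 585H and 435 in mouse 586H, within or under the control range, and with all 6 mice grouped by title its log2 fold change was 0.087 (unadjusted p = 0.711 from limma). The direction was the same in all 16 alternatives, grouping by the genotype field among them. Gm26917 was 21212 and 19068 in control and 21437 and 24732 in knockout hearts, also without overlap (log2 fold change 0.20 ± 0.10, 95% interval -0.057 to 0.45, unadjusted p = 0.107 and adjusted p = 0.833 from limma). Of the 10 genes with a mean of at least 1000, AY036118 varied most within a genotype, at 14827 and 26200.5 in control and 29186 and 17661 in knockout hearts (log2 fold change 0.20 ± 0.32, 95% interval -0.57 to 0.98, unadjusted p = 0.547 and adjusted p = 0.956 from limma), and was far lower in the other mice, 3531 in mouse 585H and 4512 in mouse 586H.

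Mir22hg, the host of miR-22, had the second-smallest p. It was 126 and 98.3 in control and 175 and 182 in knockout hearts, both knockouts above both controls (112 ± 19.6 against 179 ± 4.68, mean ± SD, n = 2 each; log2 fold change 0.68 ± 0.19, 95% interval 0.23 to 1.13, unadjusted p = 0.0101 and adjusted p = 0.671 from limma). Over the 16 alternatives its log2 fold change lay between 0.28 and 0.86, and its unadjusted p was under 0.05 in 14 of them. The mice left out had 157 in mouse 585H and 109.8 in mouse 586H, inside the span of the 4 libraries. On the same strand, 206 exonic bases of Mir22hg are shared with Tlcd2, a membrane protein gene, which was 80.1 and 40.4 in control and 48.6 and 43.6 in knockout hearts (log2 fold change -0.30 ± 0.37, adjusted p = 0.936), so reads of this stretch could be split between both genes.

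The other 5 members higher at an unadjusted p under 0.05, apart from Kcnq1ot1, are unnamed models or antisense transcripts. Gm47283 (chrY:90784738-90816464, plus strand), on the Y chromosome, was 77.2 and 108 in control and 143 and 171 in knockout hearts (log2 fold change 0.77 ± 0.23, 95% interval 0.22 to 1.31, unadjusted p = 0.0138 and adjusted p = 0.696 from limma). Its control mean of 92.5 was under the level threshold, so it is in the list only through the knockout hearts. It matches Gm21887 over 516 bases at 98.5% identity, GENCODE vM21 classes it as protein-coding, and its assignment of reads is uncertain. The 4 Y-linked protein genes listed summed to 2227 and 2577 in control and 2131 and 2290 in knockout hearts. Gm20342 (chr1:63117118-63126837, plus strand), near Ino80d, a chromatin remodelling subunit, was 181 and 174 in control and 228 and 229.5 in knockout hearts, with the closest replicates of the 11 genes (log2 fold change 0.37 ± 0.14, 95% interval 0.032 to 0.70, unadjusted p = 0.0365 and adjusted p = 0.798 from limma). Ino80d itself was 749.6 and 721 in control and 682 and 715 in knockout hearts (log2 fold change -0.074 ± 0.10, adjusted p = 0.945).

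AW011738 (chr4:156203304-156205151, plus strand) was 151 and 145 in control and 182 and 209.6 in knockout hearts, both knockouts above (log2 fold change 0.40 ± 0.16, 95% interval 0.018 to 0.78, unadjusted p = 0.0427 and adjusted p = 0.806 from limma). The nearest protein-coding gene is Isg15, an interferon-induced ubiquitin-like protein, at 10.8 and 16.2 in control and 22.2 and 22.2 in knockout hearts, likewise without overlap but low in count (log2 fold change 0.71 ± 0.44, adjusted p = 0.864). Rab10os (chr12:3235504-3250377, plus strand), which overlaps Rab10 exons antisense over 143 bases, was 94.8 and 75.4 in control and 117 and 125 in knockout hearts (log2 fold change 0.51 ± 0.20, 95% interval 0.022 to 1.0, unadjusted p = 0.043 and adjusted p = 0.806 from limma). It too is in the list only through the knockout hearts, with a control mean of 85.1. Rab10, a GTPase of vesicle transport, was 1257 and 1327 in control and 1328 and 1375 in knockout hearts (log2 fold change 0.065 ± 0.091, adjusted p = 0.947). Gm42047 (chr8:121833247-121841178, plus strand) was 124 and 143 in control and 165 and 201 in knockout hearts (log2 fold change 0.45 ± 0.18, 95% interval 0.013 to 0.88, unadjusted p = 0.0454 and adjusted p = 0.806 from limma), but it shares stretches of up to 3209 bases at 98.4% identity with 8 other annotated genes, and mouse 586H had 84.1, under every other library. It lies within an intron of Gm20388 on the same strand. Gm20388 was 0 and 0 in control and 0 and 232.6 in knockout hearts, and was not tested.

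The 3 members lower at an unadjusted p under 0.05 all lie close to or inside a protein-coding gene on the opposite strand. Such positions were common among the 81. On the opposite strand, 20 shared exonic bases with a gene, 5 lay within an intron, 2 overlapped otherwise and 6 started divergently. D830024N08Rik (chr8:83576044-83585919, plus strand), inside an intron of Tecr, an enzyme of very long-chain fatty acid synthesis, was 391 and 349 in control and 249.6 and 282 in knockout hearts (log2 fold change -0.47 ± 0.14, 95% interval -0.81 to -0.14, unadjusted p = 0.013 and adjusted p = 0.68 from limma). Both knockouts lay under both controls, whereas Tecr overlapped, at 2463 and 2257 in control and 2351 and 2105 in knockout hearts (log2 fold change -0.084 ± 0.099, adjusted p = 0.935). In the mice left out D830024N08Rik was 246 in mouse 585H and 459.6 in mouse 586H, below and above all 4 libraries. With all 6 mice grouped by title its log2 fold change was -0.016 (unadjusted p = 0.949 from limma). Grouped by the genotype field instead, the 6 mice gave it an adjusted p of 0.159 from limma. That was the smallest of any member in that grouping and did not pass 0.05.

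Gm15543 (chr6:145182275-145187630, plus strand), a 361-base transcript inside an intron of Casc1, had the most negative log2 fold change, with 324 and 377 in control and 277 and 199 in knockout hearts (log2 fold change -0.57 ± 0.19, 95% interval -1.04 to -0.11, unadjusted p = 0.0236 and adjusted p = 0.773 from limma). Casc1 was low, at 11.7 and 24.2 in control and 14 and 15.3 in knockout hearts, and its groups overlapped (log2 fold change -0.20 ± 0.51, adjusted p = 0.968). Gm43672 (chr3:22074412-22076142, minus strand), whose start lies within 1000 bases of that of Tbl1xr1, a subunit of the NCoR corepressor, was 154 and 174 in control and 124 and 105 in knockout hearts (log2 fold change -0.52 ± 0.18, 95% interval -0.95 to -0.084, unadjusted p = 0.0263 and adjusted p = 0.773 from limma). Tbl1xr1 was 940.2 and 508 in control and 591 and 442 in knockout hearts, with control replicate 1 high and the groups overlapping (log2 fold change -0.43 ± 0.30, adjusted p = 0.882). With the 6 mice grouped by title the log2 fold change of Gm43672 was -0.043 (unadjusted p = 0.877 from limma). With the 6 mice grouped by the genotype field it was also negative, at an adjusted p of 0.224 from limma.

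**Figure D4:**
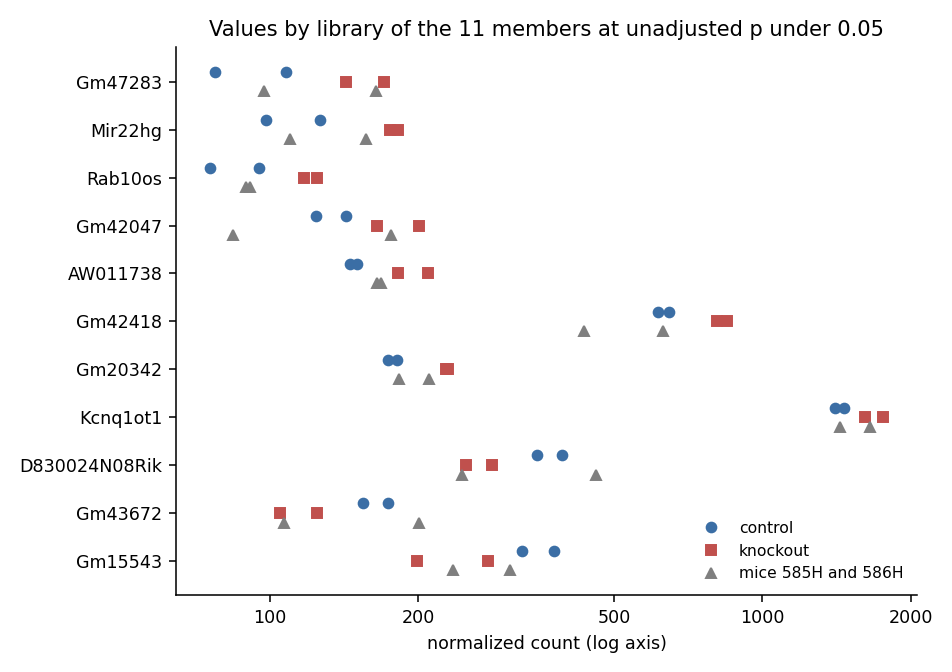
Normalized counts by library (log axis) for the 11 genes at an unadjusted p under 0.05, for 2 controls, 2 knockouts and the mice 585H and 586H, whose genotype labels contradict. Control and knockout points do not overlap for any of the 11, and the values of the other mice fall on either side, for D830024N08Rik at 246 and 460.

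Among the imprinted RNAs, 6 of the 11 listed were members and 0 were called. Kcnq1ot1 (chr7:143203458-143296549, minus strand), which is expressed from the paternal allele and silences neighbours of Kcnq1, was 1405 and 1467 in control and 1615 and 1761 in knockout hearts, both knockouts above both controls (log2 fold change 0.23 ± 0.093, 95% interval 0.0047 to 0.46, unadjusted p = 0.0466 and adjusted p = 0.806 from limma). Kcnq1, a potassium channel that it overlaps antisense, was 415 and 287 in control and 445 and 306 in knockout hearts (log2 fold change 0.096 ± 0.24, adjusted p = 0.968). Cdkn1c, a cell cycle inhibitor silenced in cis by Kcnq1ot1, was 148 and 147 in control and 145 and 164 in knockout hearts (log2 fold change 0.065 ± 0.16, adjusted p = 0.968). Both of these overlapped between the genotypes. Airn, the antisense RNA that silences Igf2r on the paternal allele, was 329 and 370.5 in control and 344 and 375 in knockout hearts (log2 fold change 0.04 ± 0.13, adjusted p = 0.975). Igf2r, the mannose-6-phosphate receptor that takes up IGF2, was 4173 and 4139 in control and 3691 and 3578 in knockout hearts, lower in both knockouts but not past adjustment (unadjusted p = 0.0455 from limma, log2 fold change -0.19 ± 0.077, adjusted p = 0.806).

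Peg13, which lies in an intron of Trappc9, was 361 and 486 in control and 422 and 409 in knockout hearts (log2 fold change -0.013 ± 0.17, adjusted p = 0.994). Meg3 and Rian, neighbouring maternally expressed RNAs of the Dlk1-Dio3 region, both overlapped between the genotypes. Meg3 was 214 and 155 in control and 157 and 216 in knockout hearts (log2 fold change 0.013 ± 0.23, adjusted p = 0.995). Rian was 297 and 213 in control and 168 and 229 in knockout hearts (log2 fold change -0.36 ± 0.23, adjusted p = 0.872). In Meg3, control replicate 1 and knockout replicate 2 were high. H19, expressed from the maternal allele beside Igf2, was 159 and 145 in control and 77.4 and 229 in knockout hearts, with the knockouts on either side of the controls and an interval of -1.33 to 0.95. Igf2, the growth factor that shares its enhancers, showed the same order of libraries, at 243 and 236 in control and 161 and 313 in knockout hearts (log2 fold change -0.095 ± 0.30, adjusted p = 0.975). Mouse 585H had only 7.87 for H19, against 155 in mouse 586H. Of the 20 imprinted protein genes listed 15 were tested, 0 were called, 1 was higher and 1 lower at an unadjusted p under 0.05. The higher one was Grb10, an adaptor that dampens insulin signalling, at 1565 and 1463 in control and 1871 and 1729 in knockout hearts (log2 fold change 0.25 ± 0.094, adjusted p = 0.798).

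Of the 15 heart and muscle RNAs listed, 4 were members and 0 were called. Mhrt (chr14:54968678-54974349, plus strand), antisense to Myh7, was 562 and 589 in control and 582 and 488 in knockout hearts (log2 fold change -0.11 ± 0.13, 95% interval -0.42 to 0.20, unadjusted p = 0.423 and adjusted p = 0.935 from limma). Gm31251 (chr14:54979393-54991601, plus strand), which the annotation places antisense beside it, was 498 and 609 in control and 482 and 451 in knockout hearts, both knockouts under both controls (log2 fold change -0.24 ± 0.14, 95% interval -0.57 to 0.09, unadjusted p = 0.127 and adjusted p = 0.837 from limma). Myh7, the slow myosin heavy chain that rises in hypertrophy, was 269 and 354 in control and 385 and 295 in knockout hearts and overlapped (log2 fold change 0.13 ± 0.20, adjusted p = 0.954). Hand2os1, which shares 461 exonic bases with the transcription factor gene Hand2 on the opposite strand, was 588 and 515 in control and 618 and 506 in knockout hearts (log2 fold change 0.023 ± 0.14, adjusted p = 0.987). Hand2 was 195 and 213 in control and 208 and 172 in knockout hearts (log2 fold change -0.11 ± 0.16, adjusted p = 0.952). Carmn, known from cardiovascular and smooth muscle cells, was 213 and 181 in control and 184 and 187 in knockout hearts (log2 fold change -0.079 ± 0.16, adjusted p = 0.964). Dubr, a regulator of myoblast differentiation, was 139 and 119 in control and 138 and 132 in knockout hearts (log2 fold change 0.072 ± 0.17, adjusted p = 0.968). Groups overlapped in all of Mhrt, Hand2os1, Carmn and Dubr. The 5 mural cell markers, another home of Carmn, summed to 13400 and 11874 in control and 10981 and 13447 in knockout hearts.

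Of the 17 growth and stress RNAs listed, 7 were members and 0 were called. Apart from Mir22hg and Dleu2 their groups overlapped. Oip5os1, also called Cyrano, which drives the decay of miR-7, was 4485 and 6095 in control and 5013 and 5299 in knockout hearts (log2 fold change -0.021 ± 0.15, adjusted p = 0.989). 2900097C17Rik, which RefSeq names Norad and which binds Pumilio proteins, was 3309 and 3629 in control and 3466 and 3326 in knockout hearts (log2 fold change -0.029 ± 0.088, 95% interval -0.24 to 0.18, unadjusted p = 0.748 and adjusted p = 0.973 from limma). It matches the pseudogene model Gm7292 over 2537 bases at 99.2% identity. Tug1 was 781 and 931 in control and 860.0 and 913 in knockout hearts (log2 fold change 0.056 ± 0.12, adjusted p = 0.968). Dleu2, the host of miR-15a and miR-16, was 377 and 403 in control and 406 and 420.0 in knockout hearts (log2 fold change 0.083 ± 0.12, adjusted p = 0.947). Firre, an X-linked RNA with nuclear architecture roles, was 347 and 379.9 in control and 376 and 351 in knockout hearts (log2 fold change 0.0021 ± 0.12, adjusted p = 0.999). Lncpint, a p53-responsive RNA, was 204 and 291 in control and 231 and 196 in knockout hearts (log2 fold change -0.20 ± 0.21, adjusted p = 0.926).

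Among the microRNA hosts not yet given, Mir99ahg was 323 and 315 in control and 388 and 284 in knockout hearts (log2 fold change 0.055 ± 0.17, adjusted p = 0.975). Mir100hg was 355 and 366 in control and 395 and 334 in knockout hearts (log2 fold change 0.0089 ± 0.13, adjusted p = 0.995). Both spanned the controls in the knockouts. 6720427I07Rik, which holds let-7a, let-7d and let-7f, was 287 and 283 in control and 306 and 349.6 in knockout hearts, both knockouts above (log2 fold change 0.20 ± 0.13, adjusted p = 0.882). A330023F24Rik, which holds miR-29b and miR-29c, was 276 and 447 in control and 312 and 288 in knockout hearts (log2 fold change -0.23 ± 0.23, adjusted p = 0.926), with control replicate 2 high. Its values in the other mice were 595 in mouse 585H and 514 in mouse 586H. Of the 16 microRNA hosts listed, 8 were members, 12 were tested and 0 were called.

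**Figure D5:**
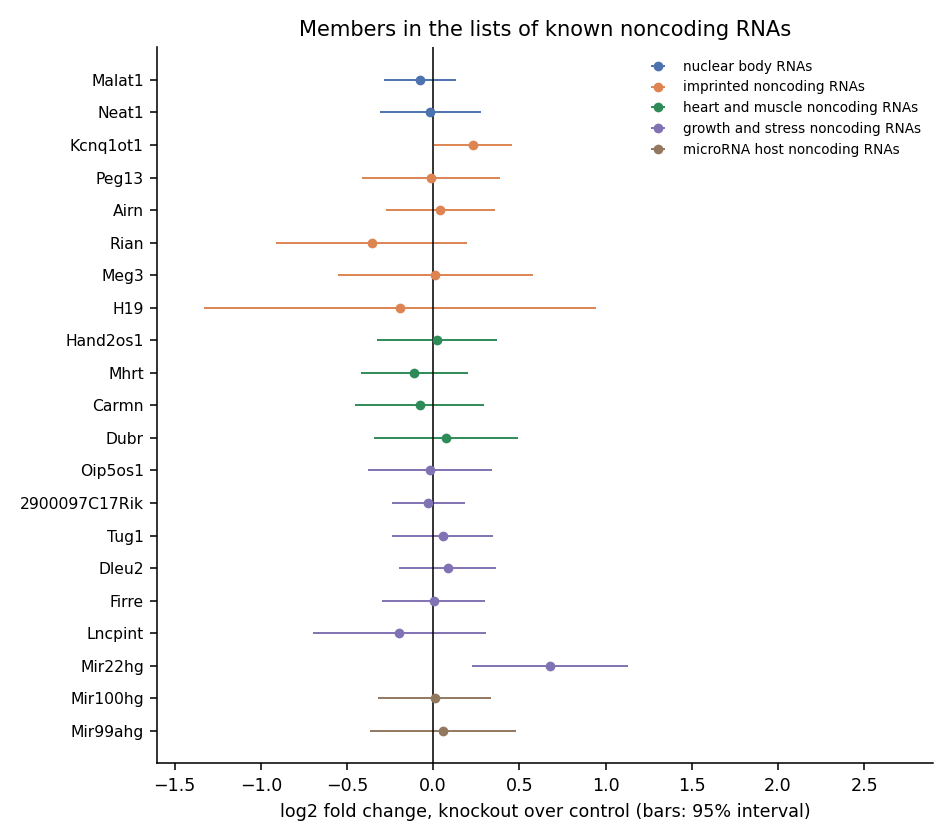
Log2 fold change of knockout over control with 95% interval for the 21 genes that are in a list of known noncoding RNAs, coloured by list (a gene in several lists is shown under the first). Intervals of Kcnq1ot1 and Mir22hg lie above 0, that of H19 spans -1.33 to 0.95, and the other 18 include 0.

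Groups did not overlap, at an unadjusted p above 0.05, in 9 further members that were higher and 5 that were lower, and those not described elsewhere include Atcayos, 2210408F21Rik, Gm46430 and Gm36827. Atcayos, antisense to Atcay over 432 exonic bases, was 713 and 590.1 in control and 573 and 577 in knockout hearts (log2 fold change -0.17 ± 0.13, adjusted p = 0.89). 2210408F21Rik, which shares 138 bases with Lncpint on the opposite strand, was 126 and 124 in control and 107 and 123 in knockout hearts (log2 fold change -0.12 ± 0.17, adjusted p = 0.951). Gm46430 was 114 and 102 in control and 100.5 and 91.8 in knockout hearts (log2 fold change -0.17 ± 0.18, adjusted p = 0.926). Gm36827, one of the 9 higher, was 129 and 132 in control and 172 and 161 in knockout hearts (log2 fold change 0.35 ± 0.16, adjusted p = 0.809), for which mouse 585H had 235. The remaining genes among the 12 highest per kb overlapped. Rmrp was 448 and 476 in control and 350.1 and 535 in knockout hearts (log2 fold change -0.092 ± 0.21, adjusted p = 0.968). Gm49708 was 2468 and 3152 in control and 2631 and 2426 in knockout hearts (log2 fold change -0.14 ± 0.13, adjusted p = 0.912). Gm50321 was 1917 and 2849 in control and 2416 and 2183 in knockout hearts (log2 fold change -0.025 ± 0.19, adjusted p = 0.989), and Gm44386 was 213 and 198 in control and 229.8 and 195 in knockout hearts (log2 fold change 0.044 ± 0.15, adjusted p = 0.978). Gm50321 matches Gm47547, also one of the 81, over 2699 bases at 98.4% identity. Of the 4 noncoding RNAs of the X inactivation centre listed, 0 were members, 3 were tested and 0 were called.

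By position against the protein-coding genes of GENCODE vM21, 38 of the 81 were intergenic, 20 shared exonic bases with a gene on the opposite strand, 5 lay within an intron on the opposite strand and 2 overlapped such a gene otherwise. A further 8 lay within an intron on the same strand, 2 shared exonic bases on the same strand, and 6 started within 1000 bases of a divergent gene. Of the 31 distinct genes that these 43 overlapping or divergent members accompanied and that could be tested, 0 were called, 0 were higher and 1, Igf2r, was lower at an unadjusted p under 0.05. Some accompany genes of the contractile or calcium apparatus. C130080G10Rik, divergent from the cardiac actin gene Actc1, was 1236 and 1035 in control and 1183 and 1200.3 in knockout hearts (log2 fold change 0.075 ± 0.11, adjusted p = 0.952). D830005E20Rik in an intron of triadin (Trdn) was 774 and 750.4 in control and 811 and 820.1 in knockout hearts (log2 fold change 0.097 ± 0.096, adjusted p = 0.918). In C130080G10Rik 1001 exonic bases are shared with another member, A530058N18Rik, on the same strand. Gm43256, Gm43259 and Gm43260 lie on the strand of Magi3 within its intron and kept the same low library, control replicate 2. Gm43256 was 173 and 95.7 in control and 147 and 161 in knockout hearts, Gm43259 141 and 66 in control and 116 and 104 in knockout hearts and Gm43260 123 and 74.1 in control and 110.4 and 113 in knockout hearts, whereas Magi3 was 1466 and 1396 in control and 1401 and 1229 in knockout hearts. Unspliced RNA of the host gene could not be told apart from these 3. The same limit holds for the other members within an intron on the same strand, Peg13 and Gm42047 among them.

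RNA turnover genes that act on noncoding transcripts were measured beside them. Of the 17 nuclear exosome and adaptor genes 16 were tested, 0 were called and 0 were under an unadjusted p of 0.05 (median log2 fold change 0.095). The smallest p was that of Zcchc8, a scaffold of the exosome-targeting complex, at 198 and 119.9 in control and 225 and 207 in knockout hearts (log2 fold change 0.48 ± 0.25, adjusted p = 0.833). Its partner Rbm7 came next, at 209 and 182 in control and 159 and 164 in knockout hearts (log2 fold change -0.27 ± 0.15, adjusted p = 0.845). Of the 14 nonsense-mediated decay genes 0 were called and 0 were under 0.05 (median 0.044). Casc3 of the exon junction complex was 181 and 198 in control and 237 and 220.3 in knockout hearts (log2 fold change 0.27 ± 0.14, adjusted p = 0.833). The endonuclease Smg6 was 444 and 479.6 in control and 386 and 423 in knockout hearts (log2 fold change -0.19 ± 0.12, adjusted p = 0.869).

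RefSeq gives a promoter window, from 250 bases before to 50 after the start, for 47 of the 81 genes. Some windows lie far from the GENCODE vM21 start of their gene, by 93011 bases for Mir99ahg and 50350 for AY036118. For Mir22hg and Kcnq1ot1 the distance is 0 and 2 bases. All 47 windows are counted here. The letters of the CCAAT box (CCAAT, on either strand, as for all motifs here) occurred in 24 of them (51.1%), against 37.9% of all 27025 promoters in the table, those of the GC box (GGGCGG) in 23 (48.9% against 35.9%), and those of the TATA box (TATAAA) in 11 (23.4% against 14.2%). TGATGNAA, the element bound by the stress factor ATF4, occurred in 0 of 47, against 4.06% of all promoters. Matches are a description of these windows and not binding sites. The 27025 promoters were not chosen by level as these genes were, so the percentages do not set the members apart. The windows of Mir22hg (chr11:75461289-75461588, plus strand) and Kcnq1ot1 (chr7:143296498-143296797, minus strand), RNAs of known function that were higher at an unadjusted p under 0.05, are printed 5′ to 3′ on the gene's strand with the matches in capitals. Mir22hg holds 2 CCAAT and 2 GC box matches, and Kcnq1ot1 3 CCAAT matches and 0 GC boxes, with no overlap between matches.
Mir22hg: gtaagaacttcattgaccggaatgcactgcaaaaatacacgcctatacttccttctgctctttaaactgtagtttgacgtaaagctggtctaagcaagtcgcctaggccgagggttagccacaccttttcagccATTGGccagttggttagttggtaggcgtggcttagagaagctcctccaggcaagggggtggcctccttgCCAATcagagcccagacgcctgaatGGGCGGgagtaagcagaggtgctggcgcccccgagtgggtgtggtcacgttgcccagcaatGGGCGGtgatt
Kcnq1ot1: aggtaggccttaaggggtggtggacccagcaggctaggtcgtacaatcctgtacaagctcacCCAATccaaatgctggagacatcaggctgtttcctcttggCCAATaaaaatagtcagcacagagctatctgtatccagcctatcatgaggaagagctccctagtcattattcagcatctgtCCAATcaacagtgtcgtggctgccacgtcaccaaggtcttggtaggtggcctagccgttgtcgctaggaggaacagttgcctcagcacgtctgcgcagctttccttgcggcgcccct

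Hearts of one genotype differed by a median SD of 0.17 on the log2 scale over the 81 RNAs, against 0.13 over the 8361 protein-coding genes with a mean of at least 100. The sets share that threshold but were not matched for level, so these medians do not compare the classes of RNA. Among the 81 RNAs the widest spread was that of Gm43305, at 117 and 361 in control and 216 and 266 in knockout hearts, then of H19 and AY036118.

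The level threshold cut through a continuous range. Just above it were Gm46430 at a mean of 102, Rab10os at 103 and Gm43260 at 105, and just below it Gm16793 at 97, A630072M18Rik at 96.8 and 9330158H04Rik at 96.6. All 81 genes passed the filter on low values. Other annotations class some of them differently: RefSeq lists Gm10076 and Gm42418 as pseudogenes, Gm37494 and Gm46430 as protein-coding and Rmrp as an RNase MRP RNA, and GENCODE vM21 gave AW011738 and Gm47283 a protein-coding type. Gm10076 matches the ribosomal protein gene Rpl41 over 383 bases at 99.5% identity. Of the 58 members matched to a RefSeq gene 53 were long noncoding there.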

How the data were processed

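Strand-specific TruSeq total RNA libraries of whole hearts were compared between 2 control and 2 knockout mice. The submitters' processing notes name STAR 2.7.3a, Salmon 1.1.0, DESeq2 1.26.0 and GRCm38.p6. The deposited table holds, per the authors, gene counts divided by size factors (a normalized signal). Whole reads were recovered for 100% of values (tolerance 0.001), and 18718499 to 25682093 reads per library resulted. The authors' own comparison (fold changes, standard errors, p-values) was not used. Mice 585H and 586H, whose labels contradict, entered no group outside the alternatives.

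The 81 genes and all gene lists were chosen with earlier results of these data known. Genes with a value of at least 10 in at least 2 of 4 libraries were tested on log2(value + 1) by limma 3.58.1 (R 4.3.3) with trended variance, and p-values were adjusted over 14522 genes (Benjamini-Hochberg). Fold changes are on that scale, which understates changes of low genes. The recovered reads were also fitted with DESeq2 1.42.0 and edgeR 4.0.16 as alternatives, beside other pseudocounts, filters, scalings and left-out libraries. The fits were tested on simulated data. Named were the 12 genes highest per kb, up to 10 in each direction with the smallest p among those without overlap, members of the lists of known noncoding RNAs, genes beside the level threshold, and for lists of protein genes those with the smallest p. Other genes, such as Gm43305, C130080G10Rik and the microRNA hosts 6720427I07Rik and A330023F24Rik, were chosen after their values were seen. Positions and lengths are those of GENCODE vM21 (GRCm38), matched for 55107 of 55383 rows, whereas the study used release vM24. Near copies (at least 95% identity over at least 200 bases) were found with blastn 2.17.0+.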

Additional observations from a re-analysis of the deposited data

How the results depend on the processing

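No member was called under any of the 16 alternatives. Grouping the 6 mice by title called 0 of all 14837 genes tested, so 0 members there is no result about the members. Grouping by the genotype field called 51 of 14837, with a smallest adjusted p of a member of 0.159 from limma. Of 14522 genes, edgeR called 19 and DESeq2 62. The counts of members at an unadjusted p that follow are a description, without the share over all genes beside them. The number of members higher at an unadjusted p under 0.05 was 4 with the replicate block, 5 without the mean-variance trend, 5 by edgeR, 3 by DESeq2, 2 with all 6 mice grouped by title and 3 among members with a mean of at least 200, against 8, and lay between 1 and 8 without single libraries. Grouped by the genotype field, the 6 mice gave 7 higher and 3 lower. The number lower was 0 with the 6 mice grouped by title, against 3, and 2 to 8 without single libraries. The median log2 fold change was -0.0308 to 0.0888 without single libraries. The difference in the share held by the members (knockout minus control, percentage points of nuclear counts) was 0.0188, it was 0.189 as a share of all genes, and -0.0933 to 0.131 without single libraries. An alternative chosen after seeing the data, without the 3 genes of the chromosome 17 locus, left 7 higher and 3 lower. Replicate numbers of the labels are shared between the genotypes and state no pairing. Deviations of same-numbered libraries correlated at r = 0.314, and the replicate block called 0 members. Of 672 log2 fold changes of the 42 named members, 619 kept their direction, and 16 members never changed it. Changes of direction with the 6 mice grouped by title were Gm26917 -0.035, Oip5os1 0.024, Gm50321 0.025, Dleu2 -0.012, Firre -0.063, Mir100hg -0.026, Mir99ahg -0.0098, Meg3 -0.017, Gm42047 -0.053 and H19 1.25, and grouped by the genotype field Neat1 0.072, Rmrp 0.27, Peg13 0.0098, Airn -0.0404, 2210408F21Rik 0.0094 and Gm43260 -0.00083. Peg13 was 0.0013 with equal nuclear totals, and H19 0.013 by edgeR and 0.00503 by DESeq2. Without single libraries, log2 fold changes that turned ranged as follows: AY036118 -0.21 to 0.61, Neat1 -0.16 to 0.13, Oip5os1 -0.24 to 0.20, 2900097C17Rik -0.096 to 0.037, Gm49708 -0.32 to 0.034, Gm50321 -0.31 to 0.26, Tug1 -0.071 to 0.18, Hand2os1 -0.12 to 0.17, Mhrt -0.24 to 0.018, Rmrp -0.40 to 0.21, Peg13 -0.23 to 0.20, Firre -0.063 to 0.067, Mir100hg -0.11 to 0.13, Airn -0.044 to 0.12, Mir99ahg -0.17 to 0.28, Lncpint -0.45 to 0.057, Gm44386 -0.074 to 0.16, Carmn -0.20 to 0.039, Meg3 -0.22 to 0.24, H19 -0.97 to 0.58, Dubr -0.0403 to 0.18 and Gm43260 -0.14 to 0.59. The cause of these changes was not tested. With 1 library left in a group its spread is assumed to equal that of the other group. With 2 hearts a genotype, the 95% interval of a difference had a median width to either side of 0.43 on the log2 scale.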

Other observations

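In the mice 585H and 586H, whose genotype labels contradict, 6 values of the 81 RNAs lay at least 1.5-fold outside the range of the other 4 libraries, and all 6 were low. AY036118 was 3531 in mouse 585H and 4512 in mouse 586H, against 14827 to 29186 in the 4 libraries. H19 was 7.87 in mouse 585H, against 77.4 to 229 in the 4, while mouse 586H had 155. Gm20559 was 81.3 in mouse 585H, against 159 to 222. Gm43256 and Gm43260, both within an intron of Magi3, were 58.6 and 46.3 in mouse 585H. These mice were placed in no group, and they entered a fit only in the alternatives that group all 6 mice by title or by genotype field.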
